A study of Rattus norvegicus with 6 samples.

Results

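The enzymes of ketone body metabolism examined here were Oxct1, Bdh1 and Acat1, 3 of the 10411 genes that the platform annotation named on these arrays. Every probe set that the annotation gave to exactly 1 of these genes was taken, which yielded 4 of the 15923 probe sets: 1371421_at for Oxct1, 1374765_at and 1368387_at for Bdh1, and 1367763_at for Acat1. The muscle was the left costal part of the diaphragm, the main muscle of breathing, from 3 diabetic and 3 normal male Wistar rats, each on an array of its own. The diabetic rats had received an intraperitoneal injection of 60 mg/kg streptozotocin, which destroys insulin-producing cells, dissolved in citrate buffer at 8 weeks of age, and the normal rats had received the buffer alone. All rats were fasted overnight before the muscle was taken 4 weeks later, and neither insulin nor an oral hypoglycemic drug was given, so the comparison is of untreated diabetic with normal muscle in the fasted state. Each value is a signal, the linear brightness that the array software gave to a probe set after scaling each array, and a level is comparable only within a probe set.

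Ketone bodies, acetoacetate and 3-hydroxybutyrate, are made in liver mitochondria from acetyl-CoA and are released into blood when insulin is low or food is withheld. Muscle and heart take them up and burn them. In that pathway of use, Bdh1 (3-hydroxybutyrate dehydrogenase) turns 3-hydroxybutyrate into acetoacetate, Oxct1 (succinyl-CoA:3-ketoacid CoA transferase) moves CoA from succinyl-CoA onto acetoacetate, and Acat1 (mitochondrial acetoacetyl-CoA thiolase) splits the acetoacetyl-CoA into acetyl-CoA. Oxct1 acts in use only and is nearly absent from hepatocytes, whereas the reactions of Bdh1 and Acat1 run both ways and also serve synthesis. Acat1 also takes part in the breakdown of isoleucine.

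The promoters of Oxct1 and Acat1 are shown because these genes catalyze adjoining steps and were both bright on the arrays. Only the probe set of Oxct1 passed the test of diabetic against normal muscle given below. Each run is the 250 bases before the start site in RefSeq, build GRCr8, read 5′ to 3′ on the strand of the gene, with capitals for GC boxes (GGGCGG) and CCAAT boxes on either strand. The Oxct1 window lies at chr2:54963714-54963963 on the plus strand and the Acat1 window at chr8:62905043-62905292 on the minus strand.
Oxct1: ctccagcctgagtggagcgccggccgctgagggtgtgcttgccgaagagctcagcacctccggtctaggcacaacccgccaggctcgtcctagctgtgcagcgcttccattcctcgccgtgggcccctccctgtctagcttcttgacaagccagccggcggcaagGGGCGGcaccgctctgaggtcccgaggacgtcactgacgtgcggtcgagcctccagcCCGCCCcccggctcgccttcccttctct
Acat1: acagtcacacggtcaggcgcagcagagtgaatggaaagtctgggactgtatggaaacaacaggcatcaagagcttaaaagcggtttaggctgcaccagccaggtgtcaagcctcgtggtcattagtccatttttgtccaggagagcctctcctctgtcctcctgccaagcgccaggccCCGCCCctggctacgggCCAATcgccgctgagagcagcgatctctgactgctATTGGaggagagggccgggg
The Oxct1 window held 2 GC boxes and no CCAAT box, and the Acat1 window held 1 GC box and 2 CCAAT boxes. A GC box was found in 30.5% and a CCAAT box in 34% of the 33469 promoter windows of the same length. G and C made up 68.8% of the Oxct1 window and 58.4% of the Acat1 window, against a median of 51.2% over all windows. The TATA box (TATAAA, in 12.9% of windows), the nuclear receptor half-site (AGGTCA, 14.1%), the longer site bound by estrogen-related receptors (TCAAGGTCA, 0.388%) and the E-box (CACGTG, 5.59%) were searched on both strands and were found in neither window. The Bdh1 window, searched in the same way, held 1 GC box and none of the others.

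Of the 4 probe sets, that of Oxct1 fell in diabetic diaphragm and the other 3, those of Bdh1 and Acat1, did not pass the test. In all, 331 of 9519 tested probe sets fell at an adjusted p under 0.05, which is 3.48%, and 314, or 3.3%, rose (limma, Benjamini-Hochberg adjustment over all tested probe sets). All 4 were above the filter on dim signals, a mean over the 6 arrays of 105.8, and all 4 were tested. Their log2 fold changes, diabetic minus normal, were all below 0, as were those of 4724 of the 9519 tested probe sets. The 4 values stand for 3 genes, since Bdh1 has 2 probe sets, and that of Acat1 was -0.04. Their median was -0.47, against a median of 0.00 over all tested probe sets.

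Oxct1, the step that commits acetoacetate to use, had signals of 5346, 4065 and 3631 in diabetic diaphragm replicates 1, 2 and 3, and of 10731, 8897 and 7943 in normal diaphragm replicates 1, 2 and 3. The groups did not overlap: the brightest diabetic array lay well under the dimmest normal array. Over all tested probe sets, 14.4% had every diabetic array below every normal array. The mean signal was 4347 ± 892 in diabetic and 9190 ± 1417 in normal diaphragm (SD, n = 3 each), so that diabetic muscle had 47.3% of the normal signal, a fold change of -2.11. On the log2 scale Oxct1 fell by 1.09 (standard error 0.18, 95% interval -1.49 to -0.69, limma adjusted p = 0.0075). Ordered by p-value among the probe sets with a log2 fold change below 0, Oxct1 stood at rank 72, and ordered by log2 fold change it stood at rank 146 of 9519 from the lowest. In whole muscle, fewer cells of a type and less RNA per cell cannot be told apart.

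**Figure D1:**
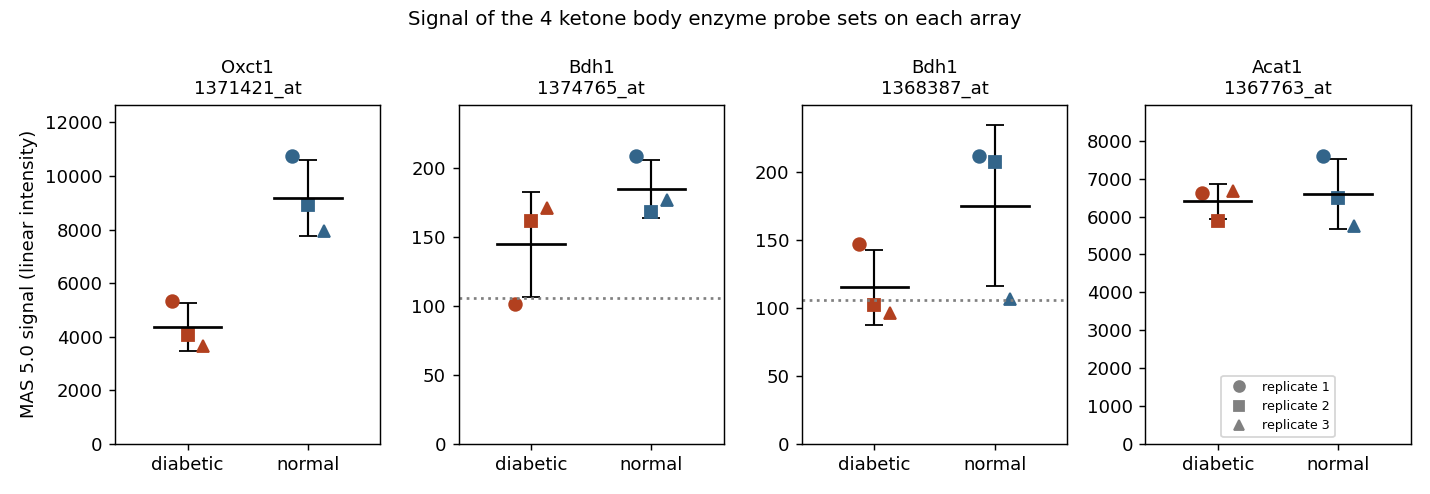
MAS 5.0 signal of the 4 probe sets on each array, on linear axes from 0 that differ between panels, with diabetic arrays to the left of normal arrays. Each point is 1 rat, lines are means and bars are SD (n = 3), and the dotted line in the Bdh1 panels is the filter level of 105.8; the Oxct1 groups are apart, at means of 4347 in diabetic and 9190 in normal diaphragm, while the groups of the other 3 panels overlap.

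Bdh1, which interconverts the 2 ketone bodies, was dim on both of its probe sets, near the filter level. On probe set 1374765_at the signals were 101, 162 and 171 in diabetic replicates 1, 2 and 3, and 209, 168 and 177 in normal replicates 1, 2 and 3. On probe set 1368387_at they were 147, 102 and 96.5 in the diabetic and 211, 208 and 107 in the normal replicates, in the same order. Groups overlapped on both probe sets. The 2 probe sets also ordered the diabetic rats differently, since replicate 1 was the dimmest of them on 1374765_at and the brightest on 1368387_at.
The mean of 1374765_at was 145 ± 38.0 in diabetic and 185 ± 21.2 in normal diaphragm (SD, n = 3 each), and that of 1368387_at was 115 ± 27.6 in diabetic and 175 ± 59.4 in normal diaphragm (SD, n = 3 each). Neither difference passed the test. The log2 fold changes were -0.38 (standard error 0.25, 95% interval -0.95 to 0.18, limma adjusted p = 0.40) for 1374765_at and -0.57 (standard error 0.32, 95% interval -1.27 to 0.13, limma adjusted p = 0.30) for 1368387_at. These intervals hold 0 as well as a fall of the size seen for Oxct1 in the case of 1368387_at, so the arrays do not settle whether Bdh1 changed.

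Acat1, the thiolase that serves use and synthesis alike, had signals of 6632, 5878 and 6685 in diabetic replicates 1, 2 and 3, and of 7589, 6481 and 5750 in normal replicates 1, 2 and 3. All 3 diabetic arrays lay within the range of the normal arrays. The mean signal was 6398 ± 451 in diabetic and 6606 ± 926 in normal diaphragm (SD, n = 3 each). The log2 fold change was -0.04 (standard error 0.15, 95% interval -0.37 to 0.29, limma adjusted p = 0.90), an interval that does not reach the log2 fold change of Oxct1. The sign of this small difference turned with the arrays included: the log2 fold change was 0.021 without diabetic replicate 2 and 0.065 without normal replicate 1.

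**Figure D2:**
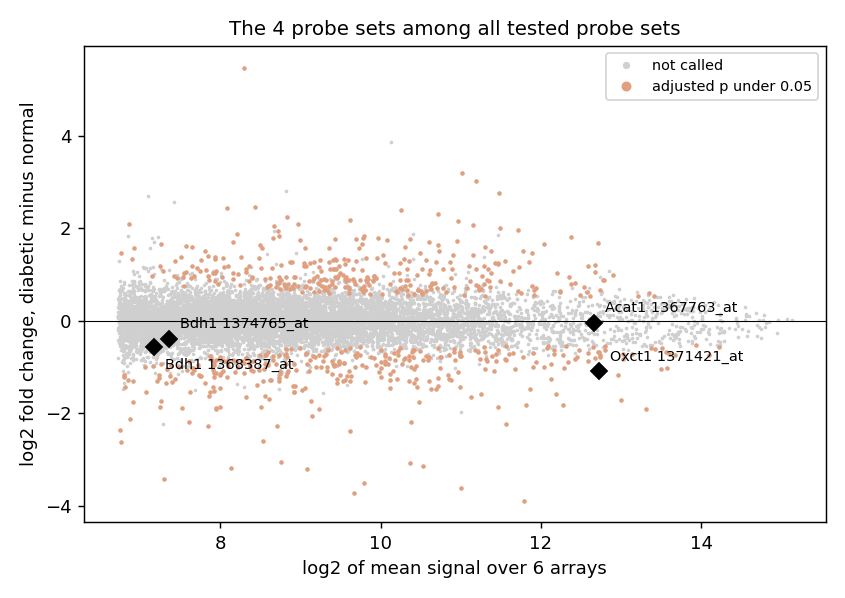
Log2 fold change, diabetic minus normal, against the log2 of the mean signal over 6 arrays for the 9519 tested probe sets, with those at an adjusted p under 0.05 in orange. Black diamonds are the 4 ketone body enzyme probe sets: Oxct1 and Acat1 lie at the bright end at log2 fold changes of -1.09 and -0.04, and both Bdh1 probe sets lie at the dim end.

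Oxct1, which acts in use only, was compared with the enzymes shared by both directions, through the ratio of their signals on the same array. No enzyme of synthesis alone entered this comparison, so it does not set use against synthesis as such. The ratio of Oxct1 to Acat1 was 0.806, 0.691 and 0.543 on diabetic arrays 1, 2 and 3, and 1.41, 1.37 and 1.38 on normal arrays 1, 2 and 3. The normal arrays were thus nearly alike and the diabetic arrays were all lower and more spread. The log2 ratio averaged -0.57 ± 0.29 in diabetic and 0.47 ± 0.02 in normal diaphragm (SD, n = 3 each), a difference of -1.05. The 2-sided exact permutation test gave p = 0.1, the smallest that 3 arrays against 3 can give, and 0.3 after Benjamini-Hochberg adjustment over the 3 pairs of members compared. The ratio sets the changes of the 2 probe sets against each other and does not bear on whether Acat1 was constant.
With the brighter Bdh1 probe set, 1374765_at, the ratio of Oxct1 to Bdh1 was 52.8, 25.1 and 21.2 on diabetic arrays and 51.4, 52.8 and 44.9 on normal arrays. Diabetic replicate 1 lay among the normal arrays and the other 2 diabetic arrays lay below them. That replicate was the dimmest diabetic array on this probe set but the brightest on the dimmer Bdh1 probe set. The overlap therefore depends on the probe set, and ratios with the dimmer one were not tested. With 1374765_at, the difference in log2 ratio was -0.70 for Oxct1 over Bdh1 (2-sided exact permutation p = 0.3). For Bdh1 over Acat1 it was -0.34 (2-sided exact permutation p = 0.3).

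**Figure D3:**
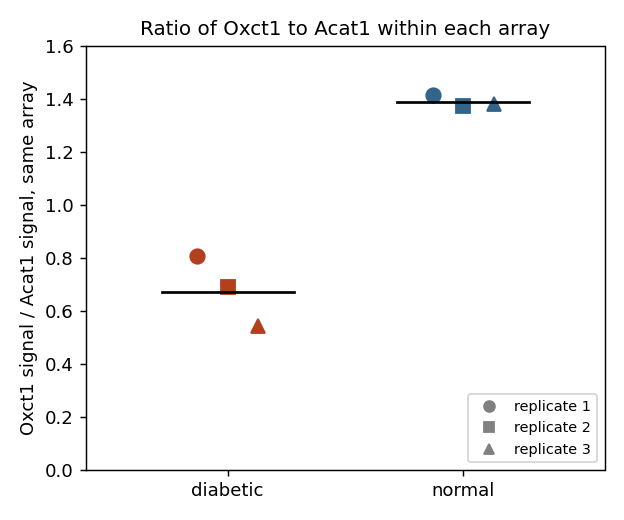
Ratio of the Oxct1 signal to the Acat1 signal on the same array, on a linear axis from 0, with diabetic arrays to the left of normal arrays; each point is 1 rat and lines are geometric means of 3. Diabetic arrays sit between 0.543 and 0.806 and normal arrays between 1.37 and 1.41.

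Within groups, the deviations of Oxct1 and of Acat1 from their group means on the log2 scale had a correlation of 0.60 over the 6 arrays, and those of Oxct1 and Bdh1 probe set 1368387_at of 0.82. For Oxct1 and Bdh1 probe set 1374765_at it was -0.55, and for the 2 Bdh1 probe sets it was -0.37. The points share arrays and their scaling, and 6 arrays in 2 groups are few, so these are descriptions. In both groups replicate 1 was the brightest for Oxct1. Among normal rats replicate 1 was the brightest for Acat1 and for both Bdh1 probe sets as well.

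The genes with a pattern most like that of Oxct1, by the Pearson correlation of log2 signals over the 6 arrays, were Acsl6, a long-chain acyl-CoA synthetase (r = 0.999), Bpgm, which makes 2,3-bisphosphoglycerate (0.998), LOC100912310 (0.992), Idh3g, a subunit of the citric acid cycle enzyme isocitrate dehydrogenase (0.991), and Sgca, the muscle membrane protein alpha-sarcoglycan (0.990). The difference between groups contributes to these values. The correlation of deviations from group means was 0.999 for Acsl6, 0.986 for Bpgm, 0.936 for LOC100912310, 0.937 for Idh3g and 0.960 for Sgca. These deviations come from the same 6 arrays on which the genes were picked out of all named genes tested. High values are therefore built into the choice, and they are descriptions only. Each of these 5 had every diabetic array below every normal array, as did 14.4% of all tested probe sets. The 5 were picked for likeness to Oxct1, whose own groups did not overlap, so their separation follows largely from the choice. Of them, Acsl6 (fold change -2.69), Bpgm (-1.69) and LOC100912310 (-2.49) passed the test (limma adjusted p = 0.0074, 0.022 and 0.0043), and Idh3g (-1.30) and Sgca (-1.45) did not (limma adjusted p = 0.12 and 0.065).
For Bdh1 on probe set 1374765_at the closest genes were Pde6g, Vps36, Tomm7, Ddit4l and Efr3a, with r between 0.961 and 0.989 over the 6 arrays. For Acat1 they were Nav1, Cyyr1, Slc25a38, Zfp426 and Clcn3, with r between 0.956 and 0.986. None of these 10 genes passed the test, with limma adjusted p-values of 0.43 or more. They were picked for likeness to probe sets that did not pass, so this follows largely from the choice.

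**Figure D4:**
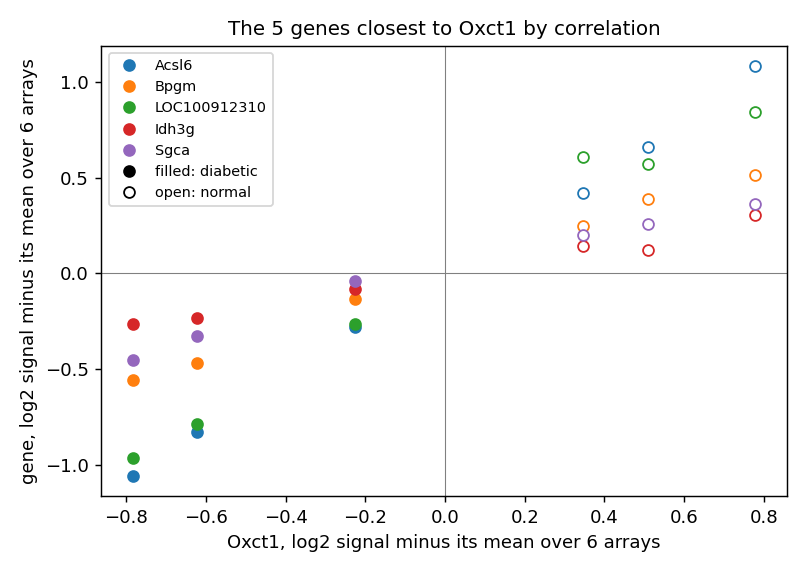
Log2 signal minus its mean over 6 arrays of the 5 genes closest to Oxct1, against the same measure of Oxct1, with diabetic arrays filled and normal arrays open. Every gene is below its mean on all diabetic arrays and above it on all normal arrays, and Acsl6 (r = 0.999) has the steepest course.

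Ketone bodies cross the muscle membrane on monocarboxylate transporters, which also carry lactate. Slc16a1 (MCT1), the carrier that oxidative muscle fibers use for uptake, had signals of 3146, 3259 and 2792 in diabetic and of 2648, 2554 and 2806 in normal diaphragm replicates 1, 2 and 3. One diabetic array lay within the normal range, and the log2 fold change of 0.20 (standard error 0.14, 95% interval -0.11 to 0.51) did not pass the test (limma adjusted p = 0.43). Slc16a3 (MCT4), the lactate exporter of glycolytic fibers, fell: its signals were 371, 236 and 154 in diabetic and 630, 769 and 1445 in normal replicates 1, 2 and 3, and its log2 fold change was -1.90 (standard error 0.35, limma adjusted p = 0.012). Normal replicate 3 was far the brightest for Slc16a3. With the replicate number added to the fit as a block, Slc16a3 missed the threshold (limma adjusted p = 0.054).
Of the 6 carrier genes, 5 were tested, and Slc16a3 was lower, none was higher and 4 did not pass. At an unadjusted p under 0.05 in limma, 3 were lower and 1 was higher, where 11.7% of all tested probe sets were lower and 12.2% were higher. Bsg (basigin), the membrane partner that MCT1 and MCT4 need, had signals of 3523, 3550 and 3263 in diabetic and of 5067, 3731 and 4667 in normal diaphragm (log2 fold change -0.37, limma adjusted p = 0.18). Emb (embigin), the partner of MCT2, had a log2 fold change of 0.56 (limma adjusted p = 0.16), and Slc16a6 (MCT7) had -0.58 (limma adjusted p = 0.12). Slc16a7 (MCT2) lay under the filter, at 58.9 to 99.4 in diabetic and 91.3 to 181 in normal diaphragm.

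Oxct1 draws its CoA from succinyl-CoA, which 2-oxoglutarate dehydrogenase makes and succinyl-CoA ligase uses in the citric acid cycle. All 6 of these genes were tested, and none passed in either direction (limma, 0 lower and 0 higher, against 2 lower and 0 higher at an unadjusted p under 0.05, a threshold that 11.7% of all tested probe sets passed as lower). All 6 log2 fold changes were below 0, between -0.44 for Dlst and -0.20 for Suclg1, with a median of -0.33. That of Oxct1, at -1.09, was below each of them. Ogdh, the first subunit of 2-oxoglutarate dehydrogenase, had a mean signal of 6531 ± 1191 in diabetic and 8462 ± 1136 in normal diaphragm (SD, n = 3 each; log2 fold change -0.38, limma adjusted p = 0.20). The difference between Oxct1 and these genes was not tested.

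Acat1 has relatives among the thiolases and neighbours in isoleucine breakdown. Of 10 such genes, 7 were tested and none passed in either direction (limma, against 2 lower and 1 higher at an unadjusted p under 0.05, where the shares over all tested probe sets were 11.7% and 12.2%). The log2 fold changes spread on both sides of 0, with a median of 0.13. The thiolases of fatty acid oxidation were above 0, with a log2 fold change of 0.45 for Acaa2, the medium-chain thiolase (limma adjusted p = 0.26), and 0.29 for Hadhb, the thiolase subunit of the trifunctional protein (limma adjusted p = 0.36), as was that of Hadha, its partner subunit, at 0.44 (limma adjusted p = 0.19). The isoleucine enzymes Acadsb, Echs1 and Hsd17b10 had log2 fold changes of -0.49, -0.39 and -0.24, none of which passed.

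Among other ketone body genes, 2 of 6 were tested, and neither passed in limma, also at an unadjusted p under 0.05. Bdh2, a cytosolic dehydrogenase, had a log2 fold change of -0.27 (limma adjusted p = 0.57), and Aacs, which activates acetoacetate in the cytosol for lipid synthesis, of -0.05 (limma adjusted p = 0.95). Acat2, the cytosolic thiolase, lay under the filter at 43.4 to 67.5 in diabetic and 27.0 to 64.7 in normal diaphragm. The lists hold 31 genes, among them 3 of ketone synthesis that were not tested here. Over all 31 listed genes, 20 were tested, 1 was lower, none was higher and 19 did not pass. The median log2 fold change of the 20 was -0.27, against 0.00 over all tested probe sets. At an unadjusted p under 0.05, 7 of the 20 were lower and 2 were higher in limma, beside the 11.7% lower and 12.2% higher over all tested probe sets.

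**Figure D5:**
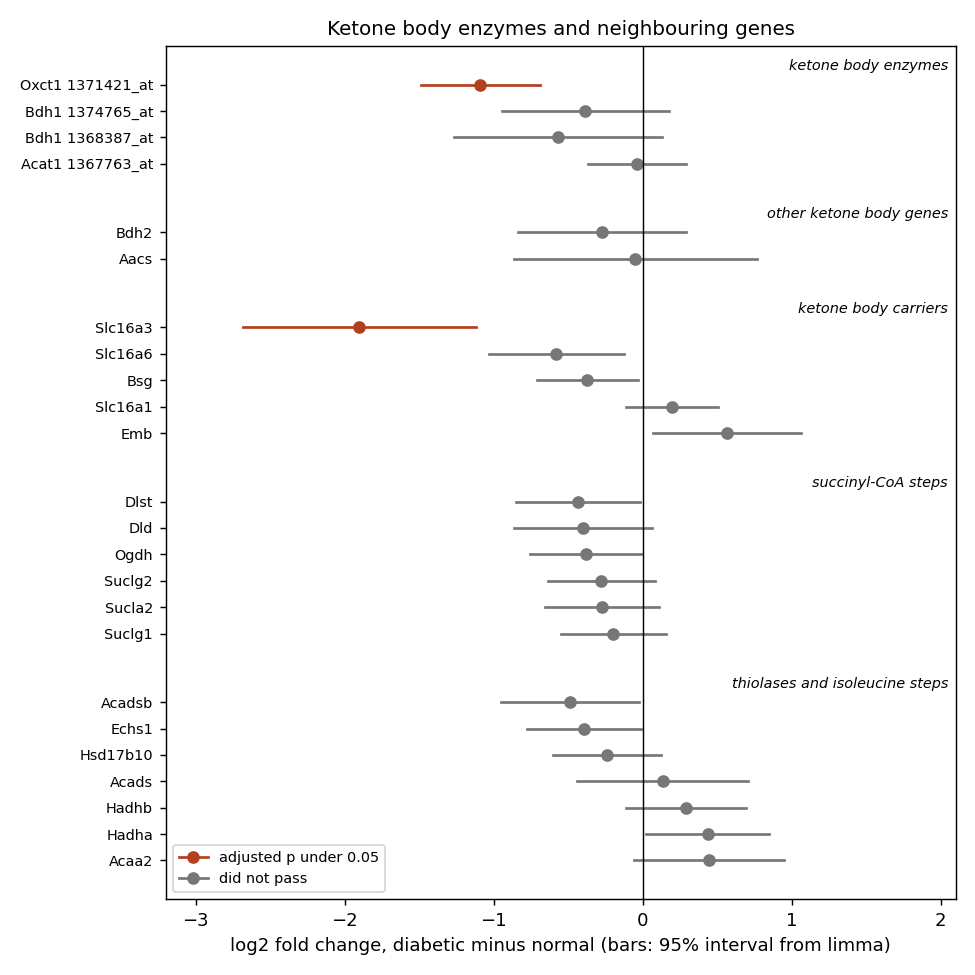
Log2 fold change, diabetic minus normal, with its 95% interval from limma, for the 4 ketone body enzyme probe sets and the 20 tested genes of the neighbouring lists; red marks an adjusted p under 0.05. Oxct1 (-1.09) and Slc16a3 (-1.90) passed, and the 6 succinyl-CoA genes lie between -0.44 and -0.20.

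The tissue label was checked against markers. All 10 skeletal muscle markers were tested. Their summed signal was 174107 to 241465 in diabetic and 218484 to 258765 in normal diaphragm. Of the 10, 2 fell, Pvalb (parvalbumin of fast fibers) and Mb (myoglobin of oxidative fibers), with log2 fold changes of -1.72 and -0.56 (limma adjusted p = 0.0061 and 0.039). Over all tested probe sets 3.48% fell. At an unadjusted p under 0.05 in limma, 4 of the 10 were lower, with Actn3 (log2 fold change -0.43) and Tnnt3 (-0.36) added, and 0 were higher. Over all tested probe sets 11.7% were lower and 12.2% higher at that threshold. Liver, which makes ketone bodies, was scarcely represented: 9 of its 10 measured markers, Alb among them, lay under the filter. The sum over all 10 was 567 to 774 in diabetic and 440 to 774 in normal diaphragm. The tested one, Fgg (a fibrinogen chain), averaged 333 in diabetic and 180 in normal diaphragm and missed the threshold (limma adjusted p = 0.052). Of the 3 endothelial markers, all tested, Kdr rose, with a mean of 1581 in diabetic and 1002 in normal diaphragm (limma adjusted p = 0.046). Pecam1 and Vwf overlapped between groups and did not pass (log2 fold changes 0.20 and 0.15), and the sum over the 3 genes was 2552 to 2844 in diabetic and 1884 to 2159 in normal diaphragm. Of 3 tested smooth muscle markers Acta2 fell (limma adjusted p = 0.049). Myh11 and Tagln did not pass (log2 fold changes -0.06 and -0.37, limma adjusted p = 0.87 and 0.31). The sum over 4 smooth muscle genes was 1569 to 2057 in diabetic and 2046 to 2400 in normal diaphragm. None of the tested adipocyte (3), macrophage (5), red blood cell (2) and mesothelial (3) markers passed in limma, also at an unadjusted p under 0.05. The part of these differences in single markers in the Oxct1 difference was not tested.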

How the data were processed

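RNA of 6 hemidiaphragms was hybridized to Affymetrix RAE 230A arrays, 1 per rat. The deposited values are MAS 5.0 signals, an intensity on a linear scale that the authors' software scaled per array; the target is not given in the sources used here, and present calls and the BAM statistics were not used here. Array medians were 167.1 to 180.5. Scaling per array hides any change in total RNA.

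Before taking log2, the 136 signals under 1 were raised to 1. Control probe sets (57) were removed, as was the dimmest 40% of those remaining, with a mean signal up to 105.8. The other 9519 probe sets entered a limma fit (version 3.58.1, R 4.3.3; lmFit, eBayes with a trend in the prior, Benjamini-Hochberg adjustment over all 9519). A fold change is the ratio of the mean signals of the groups, negative where diabetic muscle was lower. The 6 arrays leave 4 residual degrees of freedom, and their number limits the precision. The procedure was tested on simulated data.

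Of the other probe sets, 12783 had 1 gene in the platform annotation, 312 had several and 2771 had none; a gene was represented by its brightest probe set with 1 gene. All member probe sets, the genes of the fixed lists and the 5 genes most correlated with each member were named, beside markers of cell types. The members and lists were chosen with earlier results of these data known. A planned comparison of Oxct1 with other genes was not run. The within-array ratios among members were chosen after the data were seen. Alternatives were quantile or median scaling, an offset of 16 or 64, no filter or the 60th percentile, no trend, array weights, a replicate block, other thresholds, geometric means and leaving out each array. Promoter sequences are from RefSeq; all 3 members matched by symbol.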

Additional observations from a re-analysis of the deposited data

How the results depend on the processing

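Oxct1 kept its direction and passed under all 9 other settings of the fit (log2 fold change -1.13 to -1.05, limma adjusted p = 0.0042 to 0.022) and without any 1 of the 6 arrays (-1.25 to -0.97, limma adjusted p = 0.0094 to 0.032). Bdh1 and Acat1 passed under none of them. With each array left out, the log2 fold change of Acat1 was -0.13 to 0.065, that of Aacs -0.33 to 0.38 and that of Acads -0.20 to 0.32, and with array weights that of Aacs was 0.13 (limma adjusted p = 0.86). The difference in the log2 ratio of Oxct1 over Acat1 was -1.18 to -0.90 with each array left out and -1.05 to -1.04 under the other scalings and offsets. The ratio of Oxct1 to Bdh1, taken on the brighter Bdh1 probe set only, was less stable, with a difference of -1.10 to -0.44 with each array left out.

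The count of all probe sets called moved more. It was 200 higher and 227 lower with no filter, and 219 higher and 251 lower with no trend in the prior (limma). At other thresholds it was 562 higher and 585 lower (limma adjusted p under 0.1) and 1163 higher and 1112 lower (limma unadjusted p under 0.05). With each array left out in turn it was 133 to 226 higher and 179 to 235 lower (limma). The labels do not say whether the replicate numbers pair rats across the groups. Same-numbered arrays of the 2 groups had correlations of deviations of 0.10, -0.20 and -0.07, and 2 of 6 arrays correlated best with their own number. Correlations over so few arrays cannot settle whether there was a pairing. The paper describes none, and it compared blood glucose and PCR values between the groups with unpaired t-tests. With the replicate block, 162 probe sets were higher and 170 lower, Oxct1 passed (limma adjusted p = 0.014), and of the neighbouring genes 0 were lower, as Slc16a3 missed the threshold (log2 fold change -1.90, limma adjusted p = 0.054). Bdh1 lay near the filter level, where signal limits what 3 arrays per group can show, and with the filter at the 60th percentile it was not tested.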
